A study of Vitis vinifera with 60 samples.

Results

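Among 29287 genes measured in ripening grape berries, 99 had 2 successive increases after a flat green phase. They were chosen from the measured values themselves. FPKM, the fragment number scaled for transcript length and library size, were taken as log2(FPKM + 1) and averaged over the 5 cultivars at each stage. A gene was kept when its mean at Soft lay at least 1 above that at Touch, its mean at Harv lay at least 1 above that at Soft, and its means at Touch and Pea lay less than 1 apart. A value of 1 on this scale is a 2-fold change for genes well above 1 FPKM and more than that for genes near 0. A further row that met these limits was left out because it was listed at exactly 0 in a column where the other cultivars had a median of 1000 FPKM or more.

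The material was berry pericarp of Vitis vinifera, meaning berries with the seeds taken out, from the white-skinned cultivars Garganega, Glera, Moscato bianco, Passerina and Vermentino. All vines stood in 1 experimental vineyard and were sampled in the 2011 season, so a single site and year underlie every value. Berries were taken when pea-sized (Pea), when starting to touch within the bunch (Touch), when soft (Soft) and when ripe for picking (Harv). By the labels, 3 libraries were made at every stage of every cultivar, 60 in all, and the table gives only the authors' mean of each of these 20 groups. Each cultivar therefore has 1 value at a stage, the spread between its libraries and the sequencing depth are unknown, and every mean ± SD below runs over the 5 cultivars.

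A grape berry grows in an early green phase and a later ripening phase with a lag between them. Softening marks the start of ripening, when hexoses are stored in the vacuole, organic acids decline, cell walls loosen and, in aromatic cultivars, volatile compounds build up. The late part of that phase leads to the ripe berry, in which sugar import slows and the flesh continues to soften. The identifiers in the table are not paired with gene names, and 0 of them matched the annotation table at hand, so the 99 genes are given by identifier without a name, a function or a sequence. In bulk tissue, more RNA per cell and more cells of a type cannot be told apart.

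The number of genes shrank sharply with each condition. Over the means of the 5 cultivars, 784 genes gained at least 1 from Touch to Soft (3.76% of the 20833 genes tested, which reached 1 FPKM somewhere in the table). From Soft to Harv 493 genes did so, or 2.37%. Both gains were found in 119 genes. Of these, 6 had also gained at least 1 from Pea to Touch, 13 had lost at least 1 between these stages, and the other 100 were flat. The limits are not natural breaks in the data. VIT_19s0014g00410, with 1.01 from Touch to Soft, was just inside, and VIT_08s0007g03870, with 0.98, was just outside. For the later step VIT_01s0137g00430 was just inside at 1.01 and VIT_02s0033g01070 just outside at 0.98. Between Pea and Touch, VIT_12s0034g01290 was inside at -0.99 and VIT_08s0058g00410 outside at 1.03.

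Most of the 99 genes were low in green berries. The median over genes was 1.02 ± 0.15 FPKM at Pea and 1.16 ± 0.26 FPKM at Touch (SD, n = 5 cultivars), then 12.5 ± 5.7 FPKM at Soft and 41.1 ± 5.6 FPKM at Harv. In all 10 columns of green berries 24 genes stayed under 1 FPKM, while 10 genes stood at or over 10 FPKM in every one of them. A mean of at least 100 FPKM at Harv was reached by 31 genes and a mean of at least 1000 FPKM by 9. Together the 99 genes held 0.242% ± 0.027 of the summed FPKM of a column at Pea and 0.249% ± 0.037 at Touch. Their share was 1.62% ± 0.41 at Soft and 5.51% ± 0.97 at Harv. Much of it lay in a few genes, since without the 4 most abundant the share was 0.124% ± 0.011 at Pea, 0.142% ± 0.024 at Touch, 0.60% ± 0.13 at Soft and 1.60% ± 0.19 at Harv.

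**Figure D1:**
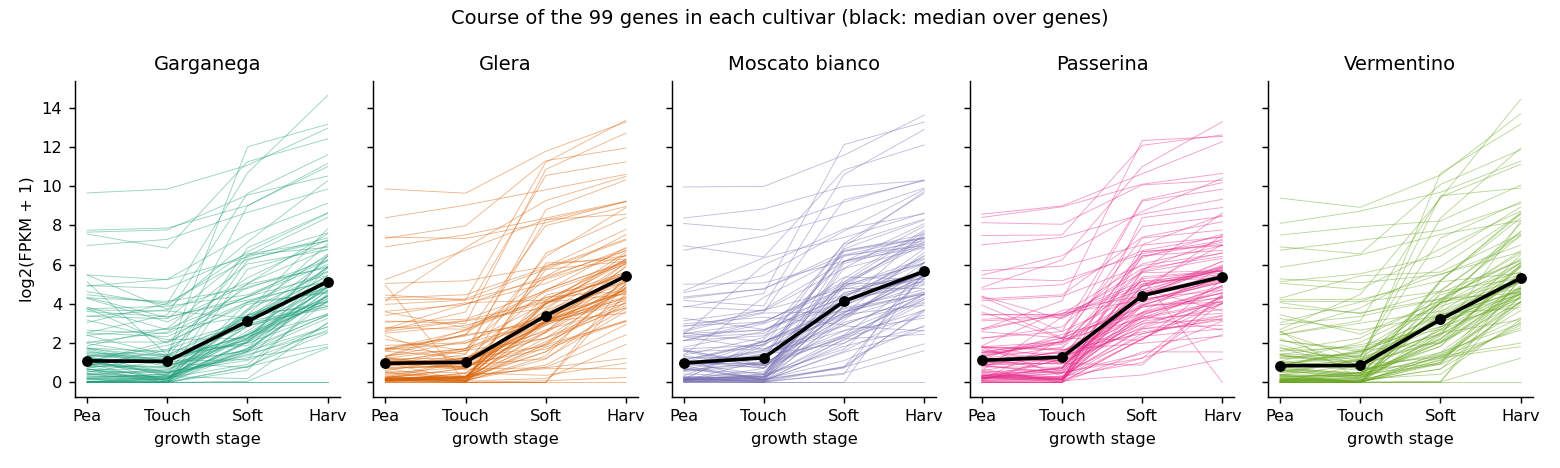
Each thin line is 1 of the 99 genes, with log2(FPKM + 1) on the vertical axis and the growth stage on the horizontal axis, in 1 panel per cultivar; the black line is the median over genes. The flat green phase and both increases follow from the rule, while the steepness of each step differs between panels, with Passerina climbing most before Soft and least after it.

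In the means over cultivars, the earlier of both steps was more often the larger. Within Garganega and Vermentino the median over genes was larger for the later step. From Touch to Soft the change of a gene, averaged over cultivars on the log2 scale, ran from 1.01 to 8.81 with a median of 1.81. From Soft to Harv it ran from 1.01 to 3.54 with a median of 1.52. The softening step was the larger one in 63 genes and the later step in 36. A change of at least 4 was found in 15 genes for the softening step, while none passed 3.54 in the later step. In 15 genes both steps reached 2. These sizes follow in part from the rule and carry no test.

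The most abundant of these transcripts at harvest was VIT_19s0090g01350. At Touch it stood at 13.9 to 75 FPKM. At Soft it was at 1633 FPKM in Garganega, 2378 in Glera, 1547 in Moscato bianco, 2044 in Passerina and 665 in Vermentino, and at Harv at 25344, 10513, 7573, 10012 and 22125 FPKM in the same order. Touch, Soft and Harv did not overlap, and Vermentino, lowest at Soft, was second to Garganega at Harv. The steps averaged 6.0 ± 1.09 and 3.15 ± 1.30 (SD over 5 cultivars, log2 scale), and the smallest of the 10 single steps was 2.14.

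VIT_06s0004g04650 was already abundant in green berries, at 380 to 997 FPKM at Pea and 485 to 1017 FPKM at Touch. It was listed at 2145 FPKM in Garganega, 3515 in Glera, 3066 in Moscato bianco, 1589 in Passerina and 1515 in Vermentino at Soft. At Harv the values were 7953, 9917, 12607, 4938 and 13231 FPKM in that order. Every cultivar gained at both steps, and Passerina ended lowest. Unlike the gene before, this one had the larger mean step late, with 1.64 ± 0.33 for the softening step and 2.04 ± 0.64 for the later one.

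VIT_11s0016g04920 had the largest softening step of all 99 genes, 8.81 ± 1.33 on the log2 scale. At Touch it ranged from 0.821 FPKM in Vermentino to 22.2 FPKM, the value of Moscato bianco. It then stood at 4116 FPKM in Garganega, 1858 in Glera, 4457 in Moscato bianco, 5134 in Passerina and 1620 in Vermentino at Soft. At Harv the same cultivars stood at 9147, 6689, 9884, 5955 and 9154 FPKM. Passerina had the highest value at Soft and the lowest at Harv, with a later step of only 0.21. In VIT_02s0033g01330 Passerina was highest and Vermentino lowest at both stages, with 1091 FPKM in Vermentino to 4341 FPKM in Passerina at Soft, and 3711 FPKM in Vermentino to 6266 FPKM in Passerina at Harv.

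Of the other 4 genes among the 8 most abundant, VIT_01s0146g00260 averaged 7.31 ± 4.04 FPKM at Touch, 792 ± 399 at Soft and 1867 ± 613 at Harv. For VIT_12s0034g01970 the values were 3.44 ± 3.73, 314 ± 285 and 1744 ± 1658 FPKM. The cultivars were far apart at Harv, with 3108 FPKM in Garganega and 3933 FPKM in Vermentino against 350 to 850 FPKM in the other cultivars. VIT_19s0177g00140 (426 ± 115, 873 ± 225 and 1787 ± 481 FPKM) and VIT_18s0001g13240 (221 ± 39 at Touch, 597 ± 331 and 1134 ± 332 FPKM) were abundant from the start and entered the set with steps of 1.04 to 1.26, close to the limit.

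**Figure D2:**
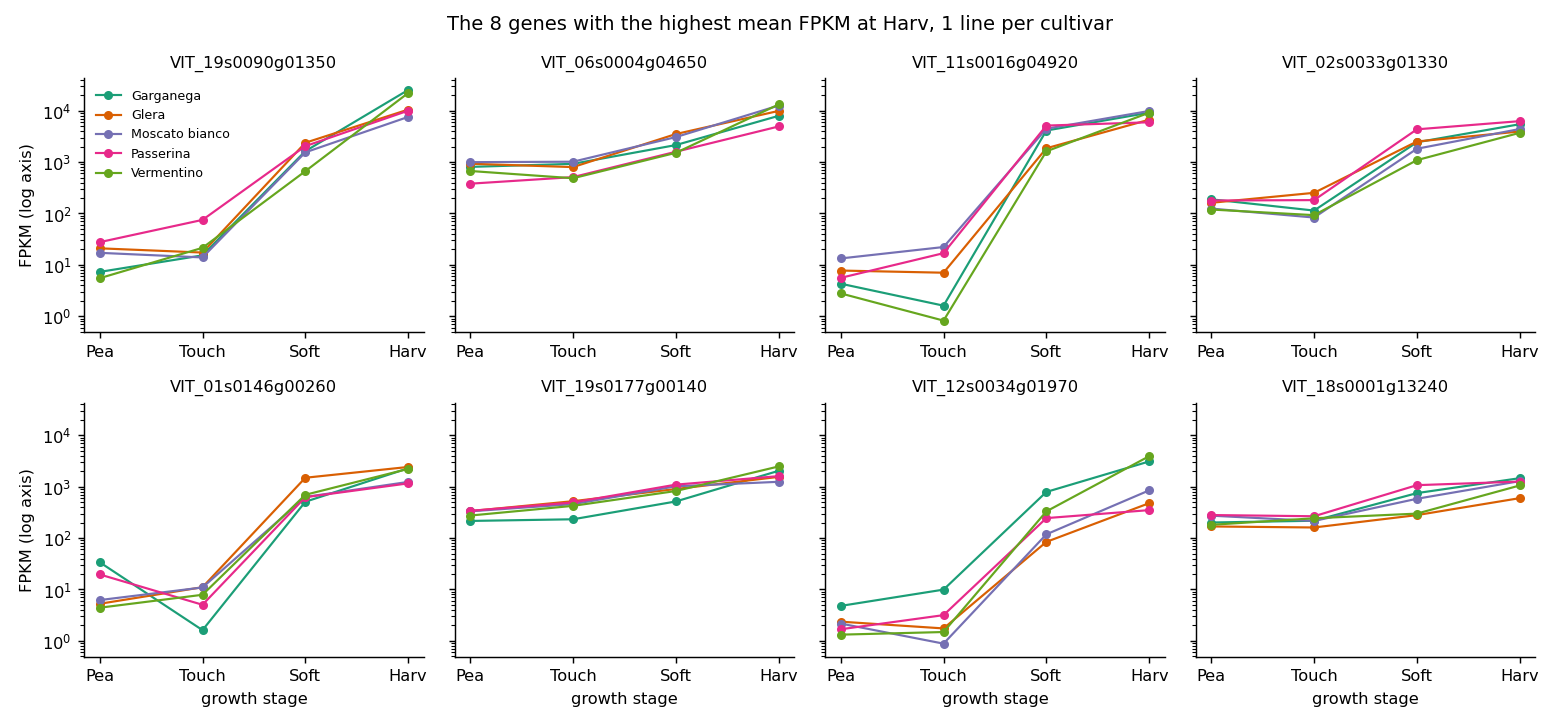
FPKM on a log axis against growth stage for the 8 genes with the highest mean FPKM at Harv; each line is 1 cultivar and each point the authors' mean for that cultivar and stage. VIT_11s0016g04920 climbs most before Soft, and VIT_06s0004g04650 climbs more after Soft, starting from 485 to 1017 FPKM at Touch.

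In 13 of the 99 genes each of the 10 single steps, 2 in each of 5 cultivars, reached 1, and in 85 genes all 10 were above 0. Of the 990 single steps, 962 were above 0. Apart from VIT_19s0090g01350, the largest smallest step was that of VIT_02s0033g00700. This gene was under 1 FPKM in all green columns, at 3.65 FPKM in Vermentino to 28.1 FPKM in Moscato bianco at Soft, and at 47.8 FPKM in Vermentino to 182 FPKM in Passerina at Harv. Its smallest step was 1.57. VIT_12s0057g00310 (smallest step 1.30) averaged 0.341 ± 0.220, 4.70 ± 2.79 and 51.4 ± 21.4 FPKM at Touch, Soft and Harv. VIT_14s0068g01400 (1.29) averaged 0.276 ± 0.280, 34.1 ± 34.9 and 192 ± 113 FPKM. The cultivars were uneven in size even where they were uniform in direction.

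VIT_14s0108g00800 had the most even end point among these. Its values at Soft were 9.66 FPKM in Garganega, 7.45 in Glera, 14.3 in Moscato bianco, 14.4 in Passerina and 3.50 in Vermentino. At Harv they were 41.0, 45.2, 46.7, 36.1 and 46.2 FPKM in that order. The cultivars, 3.50 to 14.4 FPKM at Soft, thus stood within 0.36 of each other on the log2 scale at Harv. VIT_17s0000g05110 was more abundant and ended at 1247 FPKM in Garganega, 1444 in Glera, 911 in Moscato bianco, 1354 in Passerina and 423 in Vermentino, after 111 to 615 FPKM at Soft.

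The rule works on means, so 1 or 2 cultivars can bring a gene in. Both steps reached 1 in all 5 cultivars in 13 genes, in 4 cultivars in 19, in 3 in 24, in 2 in 25, in 1 in 15 and in no cultivar in 3. The last 3 were VIT_02s0025g03310, VIT_09s0002g01970 and VIT_12s0034g01290. VIT_09s0002g01970 was listed at 0 in 17 of 20 columns, and its values were 39.0 FPKM in Passerina at Soft, 32.5 FPKM in Glera at Harv and 39.9 FPKM in Vermentino at Harv. VIT_12s0034g01290 was listed at 0 in 16 columns and stood at 29.9 FPKM in Glera at Pea, 48.2 FPKM in Passerina at Soft, 49.2 FPKM in Moscato bianco at Harv and 79.3 FPKM in Passerina at Harv. In this gene Passerina alone had values above 0 at both Soft and Harv. No step is read from the means of either gene. VIT_08s0040g01840 was the only other gene of the 99 listed at 0 at Soft or Harv, in Glera at Soft, where the other cultivars stood at 0.731 to 4.27 FPKM.

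The row left out for its exact 0 was VIT_06s0004g02560. The 0 fell on Moscato bianco at Soft, where the other cultivars had 3503 to 8268 FPKM, and the same cultivar had 12856 FPKM at Harv. In the other 4 cultivars it was lower at Harv (1237 to 3164 FPKM) than at Soft, which is not the course of the set.

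The size of both steps differed between cultivars in a graded order, with Passerina and Vermentino at the ends. From Touch to Soft the median change of the 99 genes was 2.43 in Passerina, 1.93 in Moscato bianco, 1.77 in Glera, 1.70 in Garganega and 1.53 in Vermentino on the log2 scale. From Soft to Harv the order was the reverse, with 2.13 in Vermentino, 1.84 in Garganega, 1.59 in Glera, 1.33 in Moscato bianco and 0.84 in Passerina. Of the whole gain from Touch to Harv, the median share reached by Soft was 42.8% in Vermentino, 47.4% in Garganega, 51.5% in Glera, 62.6% in Moscato bianco and 71.4% in Passerina. The whole gain itself was closer between cultivars, at 3.38 in Passerina to 3.99 in Vermentino. Both steps use the same Soft value of a cultivar, so a high Soft value makes the earlier step larger and the later step smaller. The reverse order and the share reached by Soft are thus not results separate from the order of the earlier step. These values entered the rule through the means and have no test, and the median change over all 20833 genes from Touch to Soft was -0.35 (Passerina) to -0.27 (Garganega).

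A gain of at least 1 from Touch to Soft was found for 89 of the 99 genes in Passerina, against 5.09% of all genes. The numbers were 87 in Moscato bianco (4.46%), 76 in Glera (3.91%), 75 in Garganega (4.91%) and 68 in Vermentino (4.11%). From Soft to Harv the gain was reached by 39 genes in Passerina, where 1.66% of all genes reached it. In the other cultivars it was reached by 72 in Moscato bianco (3.75%), 78 in Glera (3.32%), 82 in Garganega (4.08%) and 88 in Vermentino (5.01%). Both gains together were found in 34 genes in Passerina (0.418% of all genes), 59 in Vermentino (0.821%), 61 in Moscato bianco (0.763%), 62 in Glera (0.643%) and 62 in Garganega (0.701%). The shares of the 99 genes were fixed in large part by the rule, so nothing is read from their distance to the shares of all genes.

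**Figure D3:**
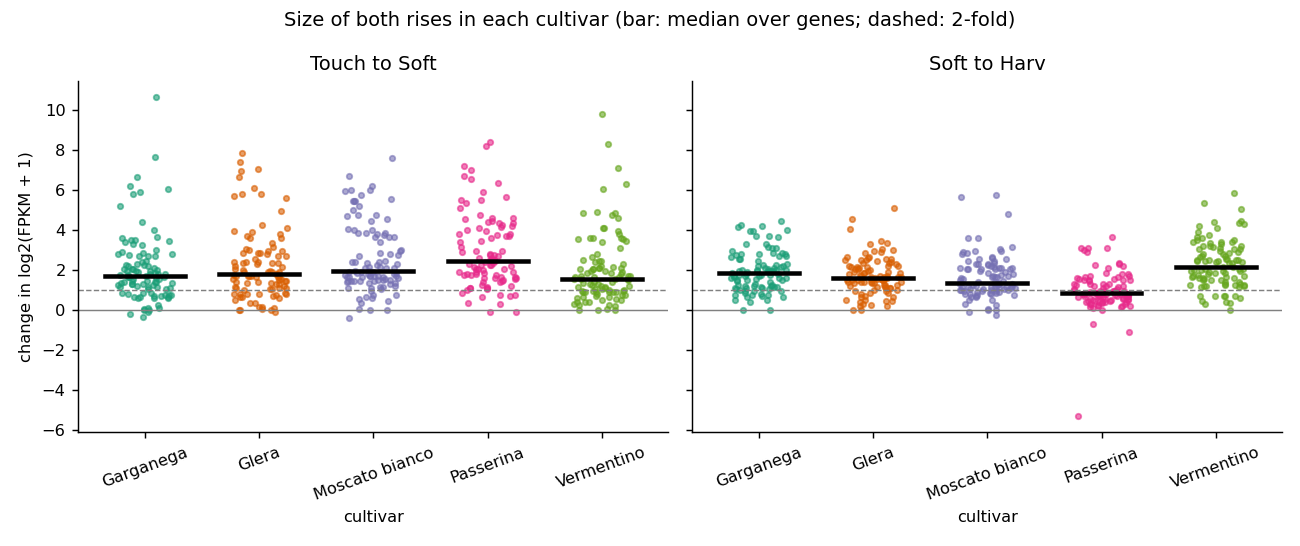
Change in log2(FPKM + 1) of each of the 99 genes for the softening step, Touch to Soft (left), and the later step, Soft to Harv (right), 1 point per gene and 1 column of points per cultivar; bars are medians over genes and the dashed line marks a 2-fold change. The medians run from 1.53 in Vermentino to 2.43 in Passerina on the left and from 0.84 in Passerina to 2.13 in Vermentino on the right; the point at -5.32 in Passerina is VIT_09s0002g01970, listed at 0 at Harv.

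Passerina also had the largest earlier and the smallest later change when the genes were picked without the cultivar concerned. Each cultivar's median was taken over the genes picked without that cultivar, so the genes differ between cultivars. The median change from Touch to Soft was 2.34 in Passerina and 1.53 to 1.93 in the other cultivars. The median change from Soft to Harv was 0.80 in Passerina and 1.18 to 2.06 in the others. The rule applied to the other 4 cultivars gave 109 genes without Passerina, of which 87 were among the 99. In Passerina, which had no part in that choice, 93 of the 109 gained at least 1 from Touch to Soft, 43 gained at least 1 from Soft to Harv and 33 did both (30.3%, against 0.418% of all genes). Picked without Vermentino, 102 genes were found, of which 68 reached the earlier gain in Vermentino, 82 the later and 54 both. For genes picked without Garganega, 53 of 96 had both gains in Garganega, and without Glera 56 of 105 had both in Glera. Without Moscato bianco, 53 of 103 had both in Moscato bianco. Both steps were above 0 in the cultivar left out for 89 to 98 genes of each set. In every cultivar a larger share of the genes chosen elsewhere had both gains than of all genes, with Passerina lowest at 30.3% and the other cultivars at 51.5% to 55.2%.

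The order of the cultivars at a stage is not named in the rule, but each cultivar's values enter the means it uses, so the counts in the 99 genes are a description. At Soft, Passerina was the highest cultivar in 46 of the 99 genes, against 19.7% of all genes, and Vermentino the lowest in 38, against 21.5%. At Harv, Passerina was highest in 19 genes, against 21.5% of all genes, and Moscato bianco in 31, against 17.7%. The change from Soft to Harv was smallest in Passerina in 64 genes, against 16.4% of all genes. At Soft the median distance of the 99 genes from the mean of the 5 cultivars was 0.69 in Passerina and 0.27 in Moscato bianco, and -0.09 in Glera, -0.46 in Garganega and -0.56 in Vermentino. At Harv these distances were -0.07, 0.22, -0.08, -0.05 and 0.08 in the same order. Over all genes the medians at these stages lay between -0.03 and 0.02. The lead of Passerina at Soft was thus not seen at Harv. In the 109 genes chosen from the other 4 cultivars alone, Passerina was highest at Soft in 48 (44.0%), highest at Harv in 17 (15.6%) and smallest in the later change in 65 (59.6%). These shares were near those in the 99 genes, but 87 of the 109 genes are among the 99, so the nearness is no separate support. Such a choice asks for a later gain in the other 4 cultivars only, which favours a smaller one in the cultivar left out. In the sets chosen without each other cultivar, that cultivar was highest at Soft in 5.9% (Vermentino) to 23.3% (Moscato bianco). It was smallest in the later change in 8.8% (Vermentino) to 23.3% (Moscato bianco). These differences were not tested.

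In genes of related courses the order of the cultivars was partly different. A set of 290 genes was flat until Soft and higher by at least 1 at Harv. In it Passerina was highest at Soft in 104 (35.9%) and Moscato bianco in 98 (33.8%). Passerina had the smallest change from Soft to Harv in 118 of these genes (40.7%). Among 441 genes that gained at least 1 from Touch to Soft and then stayed level, Moscato bianco was highest at Soft in 155 (35.1%) and Passerina in 105 (23.8%). In these 441 genes Moscato bianco also had the smallest later change in 178 (40.4%), and Passerina in 84 (19.0%). Vermentino was lowest at Soft in 30.3% of the 290 genes and 32.2% of the 441. Moscato bianco was highest at Harv in 25.2% of the 290 genes and 27.0% of the 441. Nothing particular to the 99 genes is therefore read from these positions of Vermentino and Moscato bianco. The difference between these sets and the 99 genes was not tested.

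The cultivars were farther apart at Soft than at any other stage. For the 99 genes the median distance between the highest and the lowest cultivar was 0.70 at Pea, 0.88 at Touch, 2.39 at Soft and 1.69 at Harv on the log2 scale. The distance was larger at Soft than at Harv in 67 of the 99 genes, against 51.2% of all genes. Over all 20833 genes the medians stayed between 0.63 and 0.65 at the 4 stages. In the genes that gained at Soft and stayed level the distance was 1.56 at Soft and 1.38 at Harv, and in the genes that gained only at Harv it was 1.22 and 1.94. Without Passerina, the distance was larger at Soft in 65 of the 99 genes. With a pseudocount of 5 FPKM the number was 50, near the 51.2% of all genes at a pseudocount of 1. The wider spread at Soft was therefore not seen on a scale that damps low FPKM.

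**Figure D4:**
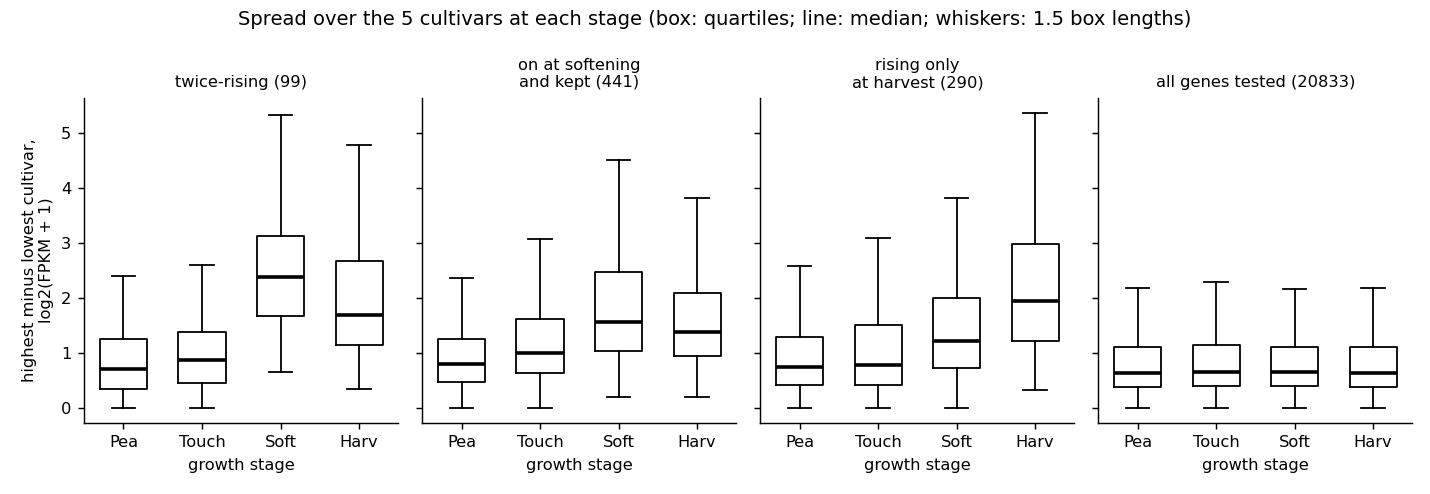
Distance between the highest and the lowest of the 5 cultivars, in log2(FPKM + 1), at each growth stage for the 99 genes with 2 increases, 441 genes that gained at Soft and stayed level, 290 genes that gained only at Harv, and all 20833 genes tested; boxes show quartiles, lines medians and whiskers 1.5 box lengths. The 99 genes have their widest spread at Soft (median 2.39) and a narrower one at Harv (median 1.69).

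Differences between cultivars that held over the stages were tested gene by gene with limma on all 20833 genes. Each cultivar was set against the mean of the other 4, with the stage as a term and the 4 stages as replicates, and a gene was called at a Benjamini-Hochberg adjusted p under 0.05 and a difference of at least 1. In Moscato bianco 8 of the 99 genes were called, 6 higher and 2 lower, or 8.08% against 3.73% of all genes in either direction and 1.69% higher. In Passerina 5 were called, all higher, or 5.05% against 2.51% in either direction and 1.49% higher. Glera had 5 called genes (2 higher, 3 lower, against 2.9% of all genes), Garganega 4 (2 higher, 2 lower, against 3.31%) and Vermentino 4 (1 higher, 3 lower, against 3.32%). The shares in Garganega and Vermentino, at 4.04% each, were near those of all genes. The share in Moscato bianco was also high in the genes that stayed level after Soft (9.07%) and in those that gained only at Harv (8.97%), so nothing particular to the 99 genes is read from it. In Glera the 5.05% was near the 4.99% of the genes that stayed level after Soft, with 2.07% in those that gained only at Harv. Among all genes that reached 5 FPKM in a column, as all 99 did, 2.85% (Passerina) to 4.32% (Moscato bianco) were called. The cultivar called can also have brought a gene into the set. Of the 26 calls, 19 were on genes that met the rule on the other 4 cultivars alone, 4 of them in each cultivar but Vermentino, which had 3. In Moscato bianco this leaves 4 of the 8 calls.

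These 26 calls fell on 20 genes, and most were lost when single stages were left out, Soft above all. Leaving out the Soft columns kept 2 of the 26, those of VIT_05s0062g00980 in Vermentino and VIT_00s0347g00030 in Glera. Leaving out Touch kept 11, leaving out Harv 12 and leaving out Pea 18. A test against a 2-fold difference (limma treat) kept 0, with 2 unadjusted p under 0.05 among the 99 genes in each of Garganega, Glera and Moscato bianco and 0 in Passerina and Vermentino. The largest called difference was that of VIT_05s0094g00350, lower in Garganega by a log2 difference of -3.52 (SE 1.05, adjusted p = 0.0289 with limma, 0.00339 to 1 over 13 alternatives). Garganega was the lowest cultivar at all 4 stages. At Soft Garganega stood at 0.779 FPKM, against 444 FPKM in Glera, 106 in Moscato bianco, 3.42 in Passerina and 729 in Vermentino. At Harv the values were 4.74 FPKM in Garganega, and 1275, 165, 36.8 and 960 FPKM in the others. The call was lost without Touch, without Soft or without Harv.

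In Moscato bianco the widest difference was in VIT_05s0077g01150, at 2.61. Without Moscato bianco its mean change from Touch to Soft was 0.80, under the limit, so this cultivar brought it into the set and the difference is given with no test. Moscato bianco stood at 101.1 FPKM at Soft and 186 at Harv, while the other cultivars stood at 0.603 to 9.56 FPKM and 1.34 to 29.0 FPKM. The same holds for VIT_19s0014g00410, with a difference of 2.18 and a mean change of 0.66 without Moscato bianco. It reached 15.2 FPKM at Soft and 194 FPKM at Harv in Moscato bianco, against 0.875 to 2.26 FPKM and 4.40 to 7.63 FPKM in the others. For both genes the other cultivars formed a low group at Harv that Moscato bianco did not overlap.

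Passerina was above the mean of the others at all 4 stages in 4 of its 5 called genes. VIT_19s0014g02190 was higher by 1.51 (SE 0.43, adjusted p = 0.025 with limma, 0.0174 to 1) and was the highest cultivar at every stage, with 49.8 FPKM at Soft and 96.9 FPKM at Harv against 1.69 to 20.2 and 16.1 to 76.4 FPKM. VIT_15s0048g00500 was higher by 1.40 (SE 0.46, adjusted p = 0.0461, 0.00904 to 1), with 22.6 FPKM at Soft against 1.52 to 2.27 FPKM, but with 71.4 FPKM at Harv against 3.02 to 55.7 FPKM. VIT_04s0023g00130 was higher by 1.37 (SE 0.33, adjusted p = 0.00959, 0.00502 to 1) and was the lowest in Vermentino at all stages. All 3 lost their call in Passerina without Soft and without Touch. VIT_19s0014g02190 also lost it without Harv and VIT_15s0048g00500 without Pea. The call of VIT_15s0048g00500 was kept in only 4 of the 13 alternatives. It was also lost with equal medians, with quantile normalization, with no filter and with a pseudocount of 5.

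A difference that did not depend on the Soft columns was that of VIT_05s0062g00980, higher in Vermentino by 1.24 (SE 0.25, adjusted p = 0.00296 with limma, 0.00132 to 1). Vermentino was highest at every stage, with 37.7 FPKM at Pea, 32.9 at Touch, 44.0 at Soft and 127 at Harv. The other cultivars stood at 3.96 to 14.8, 4.62 to 17.3, 21.0 to 37.3 and 56.1 to 88.1 FPKM at these stages. Vermentino did not overlap the other cultivars at any stage. The call was lost without Pea. VIT_00s0347g00030 was higher in Glera by 1.07 (SE 0.27, adjusted p = 0.0131, 0.00592 to 1) and lower in Vermentino by a difference of -1.17 (SE 0.27, adjusted p = 0.00685, 0.00404 to 1). At Harv it stood at 107 FPKM in Garganega, 105 in Glera, 44.5 in Moscato bianco, 33.0 in Passerina and 35.2 in Vermentino, and at Soft at 64.7, 31.9, 26.0, 16.8 and 6.08 FPKM. Glera was thus not the highest cultivar at either ripe stage, nor Vermentino the lowest at Harv. VIT_00s0347g00030 lost its Glera call without Pea, without Touch and without Harv, and its Vermentino call without Soft.

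Several of the 99 genes stand side by side in the order of the identifiers. In this naming scheme the digits after VIT give the chromosome and a scaffold, and the last digits follow the order of genes along it. Of the 99 genes, 13 had another of the set as their direct neighbour, in 7 pairs, and 4 further pairs had 1 gene between them. No such count was made for other sets of genes, so nothing particular to the 99 genes is read from it. The libraries do not mark strand and near-identical copies can share fragments, so the levels of neighbours are uncertain as separate values. Neighbours also tended to differ between cultivars in the same way. After the mean of each stage was taken off, Pearson's r over the 20 columns ran from 0.61 to 0.97 in the 7 pairs, with a median of 0.94, while the median over all 4851 pairs of the set was 0.14. The 20 columns share cultivars and stages, and these r are a description. Neighbours outside the set were not compared in this way.

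VIT_14s0060g01870 and VIT_14s0060g01880 were the clearest case (r = 0.97). At Soft VIT_14s0060g01870 stood at 76.9 FPKM in Garganega, 5.12 in Glera, 225 in Moscato bianco, 163 in Passerina and 24.8 in Vermentino, and VIT_14s0060g01880 at 17.3, 1.32, 85.2, 31.3 and 8.25 FPKM. At Harv the former stood at 149, 43.7, 387, 217 and 181 FPKM and the latter at 34.1, 11.2, 148, 44.5 and 67.9 FPKM. Moscato bianco was highest and Glera lowest in both genes at both stages. VIT_14s0060g01870 was called lower in Glera (-2.43, SE 0.58, adjusted p = 0.00941 with limma, 0.00787 to 1 over the alternatives) and higher in Moscato bianco (1.90, SE 0.58, adjusted p = 0.0289, 0.0137 to 1). VIT_14s0060g01880 was called in the same directions (-2.12, SE 0.56, adjusted p = 0.0182, and 1.77, SE 0.56, adjusted p = 0.0366). All 4 calls were lost without Soft, and all but that of VIT_14s0060g01870 in Glera also without Touch or without Harv.

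VIT_02s0033g00380 and VIT_02s0033g00390 (r = 0.97) were near 0 in green berries, at up to 0.275 and 0.186 FPKM. VIT_02s0033g00380 stood at 74.0 FPKM in Garganega, 67.0 in Glera, 90.1 in Moscato bianco, 126 in Passerina and 15.7 in Vermentino at Soft, and at 165, 76.5, 166, 170 and 104 FPKM at Harv. VIT_02s0033g00390 had 53.6, 53.3, 71.3, 99.9 and 11.1 FPKM at Soft and 123, 71.5, 118, 125 and 66.8 FPKM at Harv. Vermentino was by far the lowest at Soft in both. The smallest change from Soft to Harv was that of Glera in VIT_02s0033g00380 (0.19 on the log2 scale) and that of Passerina in VIT_02s0033g00390 (0.32). The genes on either side, VIT_02s0033g00370 and VIT_02s0033g00400, stayed at 0.0014 FPKM or less on average at every stage.

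The longest stretch lay between VIT_12s0034g01910 and VIT_12s0034g01970 and held 4 rows of the set, of which 2 join 2 identifiers each. Their means at Harv ran from 17.1 FPKM in the joined row VIT_12s0034g01920,VIT_12s0034g01930 to 1744 FPKM in VIT_12s0034g01970. In between stood VIT_12s0034g01910 at 28.7 FPKM and the joined row VIT_12s0034g01950,VIT_12s0034g01960 at 190 FPKM. Garganega and Vermentino were the highest cultivars in VIT_12s0034g01910 at Harv, with 48.3 and 61.1 FPKM against 9.68 to 12.5 FPKM, as they were in VIT_12s0034g01970. VIT_12s0034g01970 was called higher in Garganega (1.78, SE 0.43, adjusted p = 0.00965 with limma, 0.00438 to 1 over the alternatives), a call lost without Touch and without Soft. VIT_12s0034g01940, within the stretch, and VIT_12s0034g01980, next to it, were at 0.0141 FPKM or less on average. On the other side, VIT_12s0034g01900 averaged 0.885 FPKM at Soft and 4.53 FPKM at Harv, a later step of 1.27, so the stretch was not sharply bounded there.

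On the scaffold of VIT_01s0137g00520, 4 of 5 consecutive rows belonged to the set, and VIT_01s0137g00530 among them stood at 0.241 FPKM on average at Harv. VIT_01s0137g00520 reached 29.3 FPKM on average at Harv, VIT_01s0137g00540 9.59, VIT_01s0137g00550 21.6 and VIT_01s0137g00560 13.2 FPKM. The deviations of VIT_01s0137g00540 and VIT_01s0137g00560 went together with r = 0.97, and those of VIT_01s0137g00520 and VIT_01s0137g00540 with only 0.25. VIT_08s0058g00430 and VIT_08s0058g00440 (r = 0.96) reached 38.8 and 100.1 FPKM on average at Harv. Their neighbour VIT_08s0058g00450 was at 34.0 FPKM at Touch, 53.2 at Soft and 35.5 at Harv, and so did not share their later step. Side by side did not always mean alike, since VIT_00s0347g00030 and VIT_00s0347g00050, with 1 gene between them, had an r of -0.16. The gene between them, VIT_00s0347g00040, averaged 3.22 FPKM at Soft and 21.4 FPKM at Harv, a later step of 2.09.

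**Figure D5:**
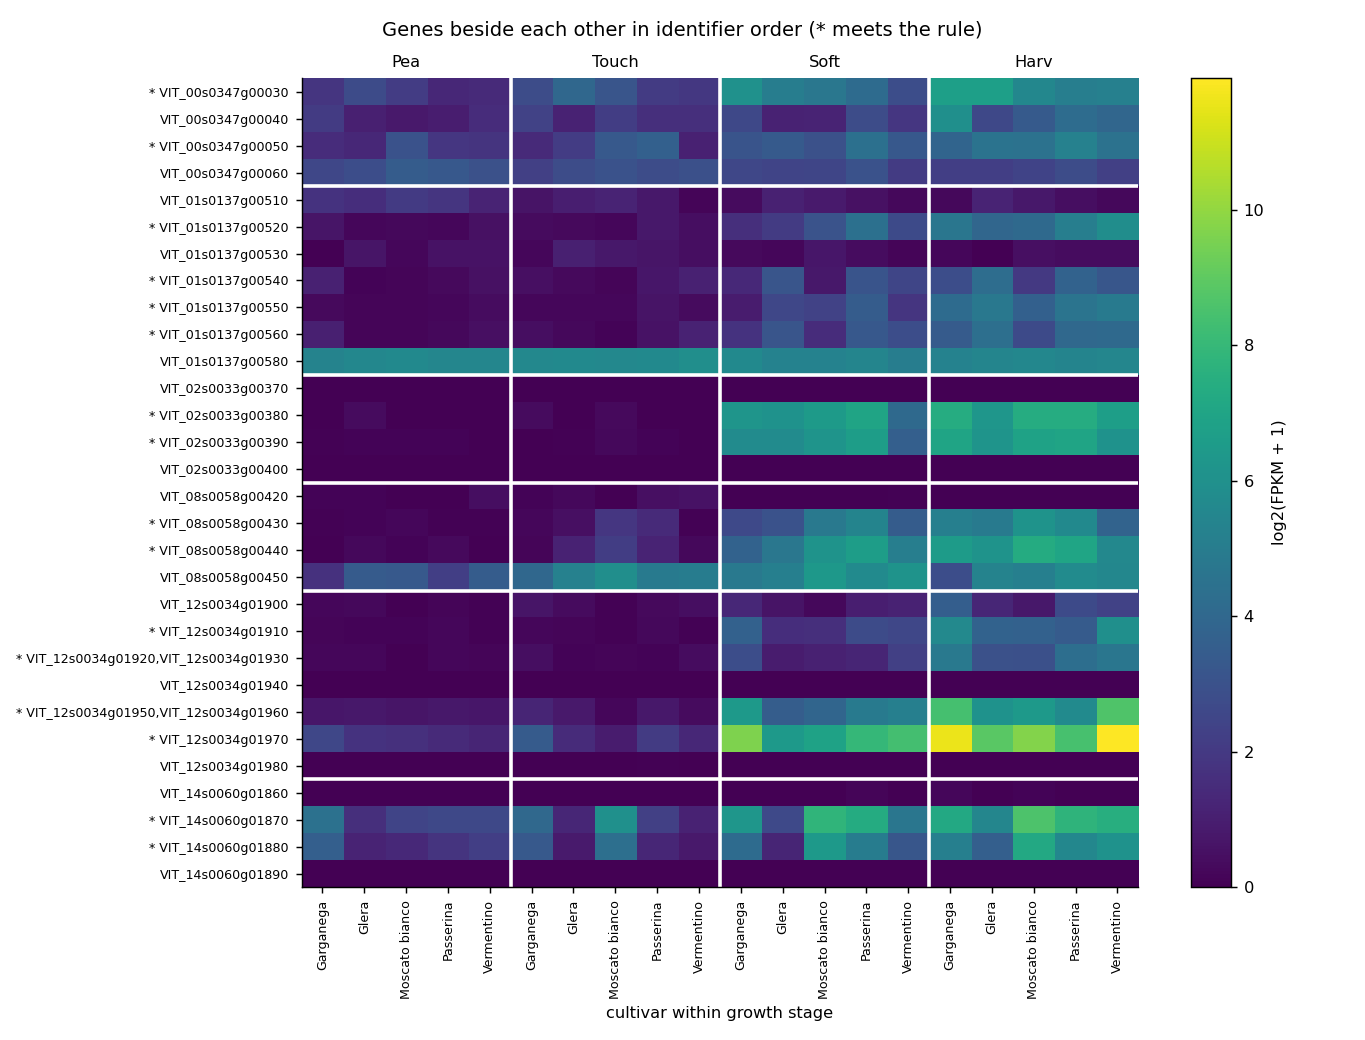
Colour shows log2(FPKM + 1) of genes beside each other in identifier order (rows, with white lines between scaffolds) in the 20 columns, ordered by growth stage and then cultivar; an asterisk marks genes that meet the rule. Marked neighbours such as VIT_14s0060g01870 and VIT_14s0060g01880 share their high and low cultivars, and unmarked genes between them are often dark at every stage.

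By the leading digits of their identifiers, the 99 genes were spread unevenly. There were 12 each with the digits 01 and 12, 11 with 14 and 9 each with 02 and 06, against 0 with 10 and 13. As a share of the genes tested under the same digits this was 1.23% for 12, 1.13% for 02 and 1.02% for 01, down to 0.12% for 03 and for 17. The stretches of neighbours contribute to these numbers, with 4 of the 12 rows under 12 and 4 of the 12 under 01.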

How the data were processed

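RNA of berry pericarp was measured in 60 libraries, 3 for each of 5 cultivars at 4 stages, each from about 400 mg of tissue, per the labels' protocols. The authors deposited FPKM as 1 table of 20 columns, each the mean for 1 cultivar and stage per the file's name and header. The tools named are Cufflinks 2.0.2 and TopHat2 2.0.6, per the submitters' processing notes; what each did, the genome build and the annotation were not given in the sources used here. The 20 column names all matched a group, and 0 were left over. Depth is unknown, and no counting interval is given; the summed FPKM of a column ran from 770169 to 1062816.

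The set of genes and all lists were chosen with earlier results of these data known. Values were taken as log2(FPKM + 1), and the 20833 genes that reached 1 FPKM in any column were tested. All 99 genes of the set passed that filter; a gene low in green berries could pass it through its ripe values. Cultivars were compared with limma 3.58.1 (trend, stage and cultivar as terms, 12 residual degrees of freedom) in R 4.3.3, with Benjamini-Hochberg adjustment over all genes. The stages stand in for replicates, so p-values do not use the spread between libraries. The procedure was also run on simulated data with a difference planted in Glera at every stage. That run does not probe differences confined to a single stage. Stage changes chose the genes and were not tested. Named genes were those most abundant at Harv, most uniform, most uneven between cultivars, called for a cultivar, next to each other, nearest the limits, or listed at 0. The functional lists and a check for seed transcripts were not run, because they need gene names. Alternatives covered the pseudocount, the filter, the scale of the columns, the test and leaving out each stage or cultivar. Choosing the genes without the cultivar compared was added after the data were seen.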

Additional observations from a re-analysis of the deposited data

Results flagged for a closer look

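Values far from the other 4 cultivars were searched in 97 sets of 5 values, and 10 sets held one. Chance gives about 1 in 20 in sets not chosen for their spread. That share does not apply here, because the 19 genes searched were chosen as most abundant, most uniform or most uneven between cultivars at Harv. Passerina had 2 genes of the 99 under 1 FPKM at Soft, and the other cultivars 8 to 10. Passerina also had both gains of at least 1 in 34 genes, against 59 to 62.

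Of single genes, on the log2(FPKM + 1) scale, VIT_19s0090g01350 at Touch was at 6.25 in Passerina and 3.90 to 4.49 elsewhere. VIT_01s0146g00260 at Soft was at 10.55 in Glera and 9.0 to 9.45 elsewhere, and VIT_19s0177g00140 at Touch was at 7.87 in Garganega and 8.73 to 9.03 elsewhere. VIT_19s0014g00410 was high in Moscato bianco at Soft (4.02, against 0.91 to 1.71) and at Harv (7.61, against 2.43 to 3.11).

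The remaining such values come from the genes listed at 0 in most columns. VIT_12s0034g01290 stood at 4.95 in Glera at Pea and at 5.62 in Passerina at Soft, and VIT_09s0002g01970 at 5.32 in Passerina at Soft, with 0 in all other cultivars at these stages. Each is a single value beside values listed at 0.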

How the results depend on the processing

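The size of the set depended on the scale. Of 99 genes, a pseudocount of 0.1 gave 173 (80 shared) and one of 5 gave 57 (48 shared). Equal medians gave 176 (all 99 shared) and quantile normalization 150 (93 shared). A looser limit of 0.8 gave 163, a stricter one 63, and both steps in every cultivar 13. Leaving out a cultivar gave 96 to 109.

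The median change from Touch to Soft, in the order Garganega, Glera, Moscato bianco, Passerina and Vermentino, was 2.45, 2.43, 2.55, 3.32 and 2.47 with a pseudocount of 0.1, and 0.87, 0.999, 1.26, 1.48 and 0.82 with 5. It was 2.07, 2.12, 2.42, 2.83 and 1.97 with equal medians, and 2.05, 2.13, 2.28, 2.84 and 1.91 with quantile normalization. Passerina was highest in each of these. Vermentino was lowest in all but that with a pseudocount of 0.1, where Glera was lowest and Garganega and Vermentino lay close to it. Values of the later step on these scales are not given here. With a pseudocount of 5, 45 genes reached 1 in Garganega, 49 in Glera and 39 in Vermentino.

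With a pseudocount of 0.1, 9 genes were called in Garganega (9.09%, against 7.63% of all genes) and 9 in Passerina (9.09%, against 6.24%). In Vermentino 11 were called (11.1%, against 7.49%). With a pseudocount of 5 the called genes numbered 1, 2, 4, 1 and 1 in the order above. The shares of all genes called were 0.926%, 0.869%, 1.14%, 0.782% and 0.965%. The Soft and Harv columns alone gave 8 in Glera (8.08%, against 2.7% of all genes) and 10 in Passerina (10.1%, against 3.05%). In the genes that stayed level after Soft these shares were 10.4% and 10.2%. In those that gained only at Harv they were 2.07% and 2.76%. No filter gave 3 in Moscato bianco (3.03%, against 2.4% of all genes). The test against a 2-fold difference gave 0 in each. Without single stages the counts ran from 0 to 4 in Garganega, 1 to 4 in Glera, 1 to 12 in Moscato bianco, 0 to 5 in Passerina and 1 to 5 in Vermentino. Of all genes, 2.02% (Passerina without Soft) to 3.91% (Moscato bianco without Harv) were called in these settings. The 12 in Moscato bianco, without Pea, were 12.1%, against 3.44% of all genes and 12.2% of the genes that stayed level after Soft. The 0 counts, without Soft, had 8 unadjusted p under 0.05 in Garganega and 19 in Passerina. None of the 26 differences changed sign. The order of cultivars and the spread by stage were examined under 4 scales chosen after seeing the data: Passerina was highest at Soft in 44 to 46 genes.

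No paired analysis was possible because the columns are means and carry no replicate numbers. Depth is unknown, so counting error behind low FPKM cannot be given.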
